A study of Mus musculus with 11 samples.

Results

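Collagen genes were followed across the cell classes of mouse perigonadal white adipose tissue (pgWAT), the visceral fat depot beside the gonads. The set held every row of the count table whose Ensembl identifier belonged to a protein-coding gene named Col, a number, a and a number. The annotation held 44 such genes, 40 of them were in the table among 23507 gene rows, and Col24a1, Col2a1, Col9a1 and Col9a2 were not analysed here. The cells were the stromal vascular fraction, the fat tissue without mature adipocytes, of untreated Pdgfrb-GFP reporter mice on the C57BL6/J background aged 12 to 20 weeks. In these mice a green fluorescent protein marked cells that used the promoter of Pdgfrb, a receptor gene of mural and fibroblast-like cells, so the reporter was carried by both sexes and all groups. Cells negative for CD45 were sorted on the reporter, on CD31 (an endothelial surface protein) and, in mouse 2, on DPP4 (a surface protein of some adipose stem cells). Libraries made by Smart-seq2, which reads whole transcripts and tags no molecules, gave read counts for 3261 cells on 11 plates from 3 male mouse ids (1, 4 and 8) and 4 female ids (2, 3, 5 and 6/7, where 6/7 stands for a pair of animals).

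Collagens are the main structural proteins of the extracellular matrix, and each molecule is a helix of chains in which glycine recurs at a fixed spacing. Types I, III, V and XI form banded fibrils, type IV forms the sheet-like network of basement membranes, and type VI forms beaded microfilaments between them. Types XII, XIV and XVI sit on fibril surfaces or link them to other matrix, types XV and XVIII carry sugar chains at basement membrane zones, and types XIII, XVII, XXIII and XXV span the cell membrane. In fat, fibrils hold the stroma together and a basement membrane surrounds each adipocyte and each vessel.

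The repeat that separates a fibril-forming chain from a basement membrane chain can be read in the coding exons. In the coding sequence of Col3a1 the longest run of codon triplets opening with glycine spanned 344 triplets, and in the chains of types I, III, V and XI it spanned 337 to 344. In the 6 type IV chains the repeat was broken into 22 to 27 runs of at least 5 triplets, the longest of 39 to 66. An exon each of a pair of fibrillar genes and of the main type IV pair is shown because the class comparisons turn on these genes. The exons are given on the coding strand in GRCm38 coordinates, and capitals mark the glycine codon that opens each triplet. The exon of Col1a1 (chr11:94938504-94938605, plus strand) and that of Col3a1 (chr1:45331106-45331204, plus strand) held no break, whereas those of Col4a1 (chr8:11226325-11226493, minus strand) and Col4a2 (chr8:11421170-11421322, plus strand) each held 1.
Col1a1: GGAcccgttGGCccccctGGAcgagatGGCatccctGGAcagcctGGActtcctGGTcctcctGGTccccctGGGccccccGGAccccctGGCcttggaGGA
Col3a1: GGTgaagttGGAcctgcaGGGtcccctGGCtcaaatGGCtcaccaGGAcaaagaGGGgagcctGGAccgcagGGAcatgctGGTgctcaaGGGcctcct
Col4a1: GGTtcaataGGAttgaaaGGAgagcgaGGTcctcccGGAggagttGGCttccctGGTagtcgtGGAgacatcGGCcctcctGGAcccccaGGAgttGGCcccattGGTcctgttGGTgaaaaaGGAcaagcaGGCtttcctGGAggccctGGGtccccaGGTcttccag
Col4a2: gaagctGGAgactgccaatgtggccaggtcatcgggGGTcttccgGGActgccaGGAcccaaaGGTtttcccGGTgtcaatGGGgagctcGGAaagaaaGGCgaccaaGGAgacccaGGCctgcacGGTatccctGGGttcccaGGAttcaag

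Classes were rebuilt by clustering the cells without the collagen genes and naming clusters from marker lists that held no collagen, so a class was not defined by its own collagens. Adipose stem cell (ASC)-like cells (Pdgfra, Dcn, Lum) numbered 2148, endothelial cell (EC)-like cells 561, macrophage-like cells 137 and mural-like cells 101, of which 60 were pericyte-like and 41 vascular smooth muscle cell (VSMC)-like. Counts were summed per mouse id and class, and a sum needed at least 10 cells, which left 7 ASC-like sums, 5 EC-like (mice 1, 2, 5, 6/7 and 8), 2 mural-like (mice 1 and 2) and 2 macrophage-like (mice 1 and 5). Cells held 149931 to 3548334 reads, no cell name was shared between plates and no pair of cells had identical counts. Of the 101 mural-like cells, 49 were rich in markers of another class, and the EC markers Cdh5 and Pecam1 stood at mean values of 127 and 277 CPM (counts per 1000000 reads in genes, with TMM-scaled totals) in mural-like sums against 399 and 984 CPM in EC-like sums. Macrophage-like cells were present although the gate should remove CD45-positive cells. Ribosomal RNA rows took 29.9% to 71.2% of gene reads in the class sums, so collagen shares are given over protein-coding reads. Differences in cell dissociation or RNA content between classes were not tested.

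The collagen share of the transcriptome separated the classes. In ASC-like sums collagen genes took 1.60% to 10.6% of protein-coding reads, with a median of 4.00% over 7 mouse ids. EC-like sums gave 0.0822% to 0.285% (n = 5), mural-like sums 0.674% in mouse 1 and 0.669% in mouse 2, and macrophage-like sums 0.00803% in mouse 1 and 0.0133% in mouse 5. No sum of one class overlapped with those of another.

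The types that made up this share differed as well. Among collagen reads of ASC-like cells, type I took 29.9% to 42.7%, type III 18.9% to 36.7%, type VI 18.2% to 35.6% and type IV only 3.63% to 5.63%. Among collagen reads of EC-like cells, type IV took 87.0% to 92.5%. In mural-like sums type IV took 34.1% and 34.4%, between the other classes, and type VI 33.6% and 33.9%, above the 26.9% and 27.7% in ASC-like cells of the same mice.

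**Figure D1:**
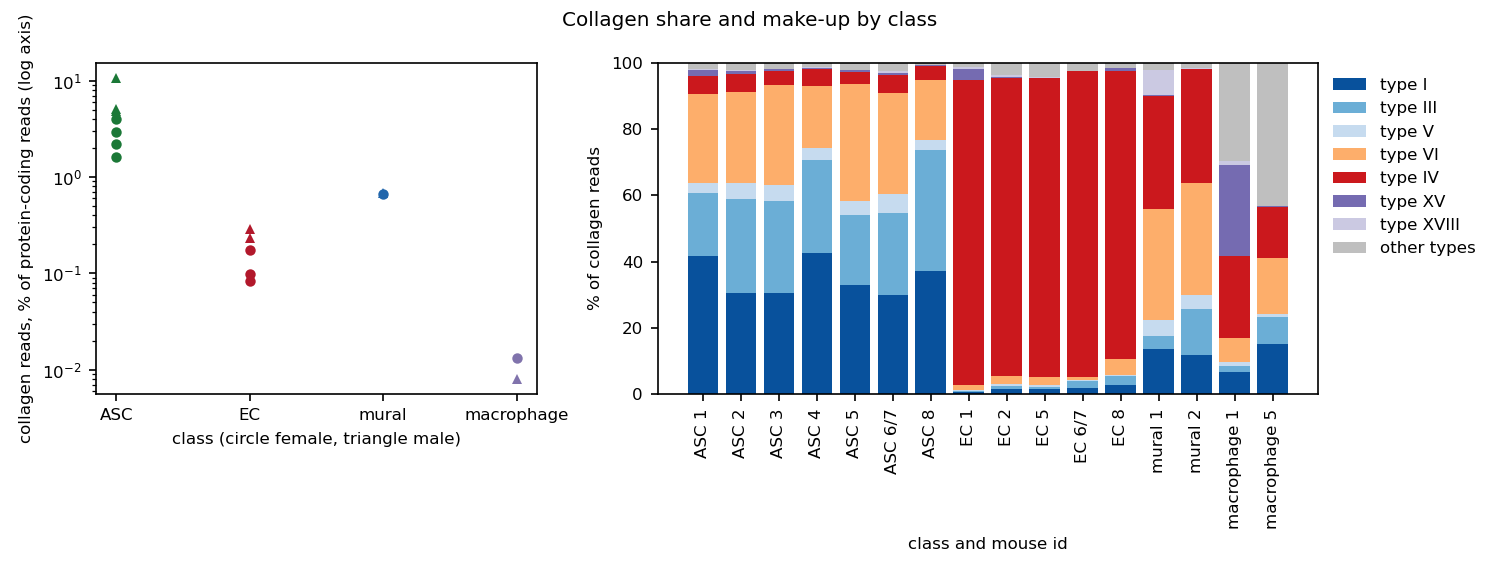
Collagen reads as percent of protein-coding reads per mouse id and class (left, log axis, circles female and triangles male) and the percent of collagen reads taken by each type (right, 1 bar per class and mouse id). ASC-like points sit between 1.60% and 10.6% and EC-like points below 0.285%, and type IV fills 87.0% to 92.5% of each EC-like bar.

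Levels of different genes were compared per length, as CPM per kilobase of the longest coding transcript (RPKM). The fibril-forming genes led in ASC-like cells. Col3a1, the chain of type III fibrils (ENSMUSG00000026043), had the highest mean, 1329.9 ± 1577 RPKM (SD, n = 7), with a lowest sum of 311, a median of 828 and a highest of 4810.0. Col1a2 and Col1a1, the partner chains of type I, had medians of 507 RPKM (203 to 2837) and 538 RPKM (168 to 2008). Mouse 8 held the highest value of each, and the 3 ranges overlapped across mice. Within mice the Col3a1 to Col1a1 ratio ranged from 0.948 to 2.40, with a median of 1.81. No order of Col3a1, Col1a2 and Col1a1 held in every mouse, and their order was not tested. The Col1a2 to Col1a1 ratio per length ranged from 0.936 to 1.41 over the mice, with a median of 0.970. It depends on the length used: with merged exons in place of the longest transcript, mean Col1a1 moved from 757 to 684 RPKM and mean Col1a2 from 875 to 377 RPKM.

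The type VI chains Col6a1 and Col6a2 overlapped with type I in ASC-like cells. Col6a2 had a median of 524 RPKM (196 to 1574) and Col6a1 a median of 368 RPKM (194 to 1151), whereas Col6a3, the long chain of the classic type VI trimer, stood at 42.0 RPKM (28.8 to 92.7). The alternative long chains were lower and varied more, with medians of 2.61 RPKM for Col6a5 (0.571 to 47.6), 3.61 RPKM for Col6a6 (0.846 to 16.2) and 0.2503 RPKM for Col6a4 (0.0983 to 0.675). The type V chains, which regulate fibril diameter, had medians of 25.5 RPKM (Col5a1), 41.4 RPKM (Col5a2) and 29.8 RPKM (Col5a3), and their ranges overlapped across mice. Within mice the Col5a1 to Col5a2 ratio ranged from 0.313 to 0.903, and the Col6a1 to Col6a2 ratio from 0.364 to 0.989. Both ratios rest on the length of the longest transcript.

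Basement membrane collagen was present in ASC-like cells as well. Col4a1 had a median of 82.3 RPKM (34.2 to 272) and Col4a2, its obligate partner in the common type IV trimer, 42.9 RPKM (20.9 to 152). In contrast, the minor type IV chains had medians of 1.87 RPKM (Col4a5), 1.14 RPKM (Col4a4), 0.749 RPKM (Col4a3) and 0.218 RPKM (Col4a6). Among the collagens of fibril surfaces and basement membrane zones, Col14a1 had a median of 30.9 RPKM (21.7 to 44.5), Col15a1 of 18.1 (9.21 to 85.1), Col18a1 of 7.56 (3.499 to 27.5) and Col16a1 of 5.48 (2.37 to 8.69). Col14a1 varied least between mice of these.

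In EC-like cells the main type IV pair led. Col4a2 was at 102, 53.8, 28.4, 23.5 and 91.6 RPKM in mice 1, 2, 5, 6/7 and 8, and Col4a1 at 36.4, 43.8, 27.7, 24.4 and 105 RPKM. Within mice the Col4a2 to Col4a1 ratio ranged from 0.869 to 2.79, so neither chain was the higher in every mouse. The next collagen by median was Col28a1 at 1.83 RPKM (0.888 to 3.36). Col6a1 had a higher mean of 3.31 RPKM through mouse 8 (12.9 RPKM), and a median of 1.27. The adipocyte marker Adipoq was at 53.8 to 225 CPM in the EC-like sums and at most 0.974 CPM in ASC-like sums, and its part in these values was not tested. Mural-like cells combined this pair with type VI. Col6a2 was at 152 RPKM in mouse 1 and 84.3 in mouse 2, Col4a2 at 91.8 and 73.3, Col6a1 at 45.5 and 84.9, and Col4a1 at 59.9 and 68.6. With 2 mice the order of these 4 could not be set. In macrophage-like cells no collagen had a mean above 1.27 RPKM, that of Col14a1, which was at 0.172 in mouse 1 and 2.37 in mouse 5.

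**Figure D2:**
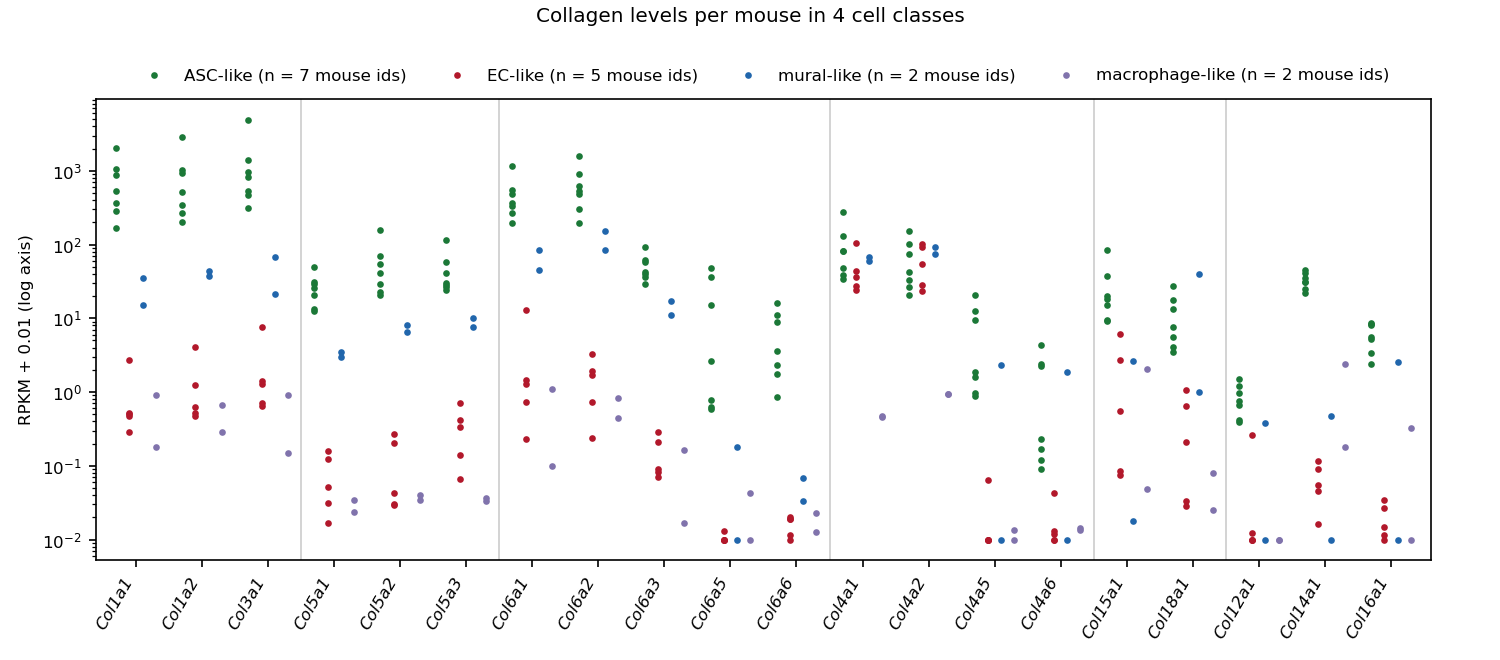
RPKM of 20 collagen genes (plus 0.01, log axis) with 1 point per mouse id in ASC-like, EC-like, mural-like and macrophage-like sums, grouped as fibrillar I and III, V, VI, IV, basement membrane zone and fibril-associated. For Col1a1, Col3a1, Col5a1 and Col6a2 the ASC-like points sit highest and the mural-like points next. EC-like and macrophage-like points of these genes lie lowest and overlap each other. The ASC-like, EC-like and mural-like points of Col4a1 and Col4a2 overlap and all lie between 20.9 and 272 RPKM.

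Single cells showed the same split, with each cell thinned to 150000 reads. Reads of Col1a1 and Col3a1 were found in 2146 of 2146 ASC-like cells (exact 95% interval from 99.8% to 100%). In EC-like cells, Col4a2 was found in 86.9% (83.8% to 89.6%) and Col4a1 in 82.3% (78.8% to 85.3%), against 17.4% (14.3% to 20.8%) for Col1a1. Macrophage-like cells, which came from mice 1 and 5 alone, had a Col1a1 read in 24.8% (17.8% to 32.9%). Cells were pooled over mice here, and the source of the Col1a1 reads in EC-like and macrophage-like cells was not tested. Before thinning, these Col1a1 shares were 31.2% in EC-like cells and 43.8% in macrophage-like cells. The intervals treat the pooled cells as independent, so they cover counting error over cells only and not the spread between mice. Amplified reads without molecular identifiers are also not independent molecules.

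The first comparison asked which collagens separated ASC-like from EC-like cells of the same animals. In mouse 1, 174 of 177 EC-like cells were on the CD31-positive plate and 151 of 152 ASC-like cells on the reporter plate. In mouse 2, 169 of 170 EC-like cells were on a CD31-positive plate without ASC-like cells. Plate and sort could not be told apart from class in these mice, whereas in mice 5 and 8 both classes shared a plate. Counts per mouse and class were tested with edgeR's quasi-likelihood test with mouse as a block, and a gene was called at a Benjamini-Hochberg adjusted p below 0.05 and a fold change above 2.6. Of the 40 genes 28 passed the count filter, 21 of these were higher in ASC-like cells and 0 were lower (at an unadjusted p under 0.05, 23 of the 28 differed in either direction). Over all 12814 genes tested, 21.6% were called, 13.4% higher in ASC-like and 8.18% higher in EC-like cells. The median log2 difference of the 28 was 8.44, also with Col8a2 at its bound, beside 0.18 over all genes, and 22 of the 28 did not overlap between the groups, against 21.5% of all genes. The count was 19 to 23 under all 23 alternatives, and 21 with only the larger of the EC-like clusters. That setting was used because the smaller one held the adipocyte gene Plin1 and none of the fixed EC markers among its leading genes. All 5 of these markers were still detected in the smaller cluster.

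The fibrillar members differed most evenly. Col1a1 was at 999 to 11905 CPM (median 3191) in ASC-like sums and at 1.62, 2.92, 2.98, 2.76 and 16.3 CPM in EC-like sums of mice 1, 2, 5, 6/7 and 8, without overlap. Its log2 difference was 9.69 ± 0.75 (SE, edgeR adjusted p = 3.38e-05). Col1a2 differed by 9.25, Col3a1 by 9.20, and Col5a1, Col5a2 and Col5a3 by 9.05, 9.20 and 7.12, all called. Type VI followed, with log2 differences of 8.85 for Col6a2, 8.67 for Col6a3, 8.22 for Col6a1, 9.24 for Col6a6 and 5.25 for Col6a4. Col6a5 had 2 reads in all EC-like sums and a mean of 137 CPM in ASC-like sums, a ratio of 28699 with a counting interval of 7945 to 236979. Males carried that mean, at 139.5 to 467 CPM against 5.595 to 24.95 CPM in females in the comparison of the sexes. The interval covers counting error only and not the spread between mice.

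Among fibril-associated collagens, Col14a1 stood at 139.9 to 287 CPM in ASC-like sums and at 0.0387 to 0.696 CPM in EC-like sums, a log2 difference of 9.83 ± 1.20 (edgeR adjusted p = 0.000320). Col16a1 differed by 10.10 (8 reads in EC-like sums) and Col12a1 by 8.89. Col8a2, a short-chain network collagen, had no read in any of the 5 EC-like sums and was at least 1013-fold higher in ASC-like sums, with the floor set at 3 counts over the group. At basement membrane zones, Col18a1, the source of endostatin, differed by 5.47 and Col15a1 by 5.44. These were smaller differences than those of the fibrillar chains, and EC-like sums of mouse 1 held Col15a1 at 31.3 CPM.

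The main type IV chains were the exception among abundant collagens. Col4a2 was at 135 to 981 CPM (median 277) in ASC-like sums and at 655, 347, 183, 152 and 591 CPM in EC-like sums, and its log2 difference was −0.04 ± 0.32 (edgeR adjusted p = 0.955). Col4a1 was at 226 to 1798 CPM (median 545) against 241, 289, 184, 161 and 697 CPM, and its log2 difference of 0.75 ± 0.24 reached an edgeR adjusted p of 0.0482 but not the fold limit. The groups overlapped for both chains, whose genes lie head to head on chromosome 8 with starts 21 bases apart. The minor chains Col4a5 (4 reads in EC-like sums), Col4a4 and Col4a6 were called higher in ASC-like cells, by 11.46, 6.26 and 6.29, and Col4a3 was not (2.53 ± 1.17, edgeR adjusted p = 0.154). Col8a1, Col23a1, Col27a1 and Col28a1 were not called either, and Col28a1 had the lowest value of the 28, −0.84 ± 1.133.

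Transcripts of ASC markers gave a scale for the low fibrillar values in EC-like cells. EC-like sums held a median of 0.123% of the ASC-like level of Dcn in the same mouse, 0.131% of Lum, 0.170% of Pdgfra, 0.208% of Serping1 and 0.476% of Dpt, which reached 2.73% in mouse 8. On the same scale they held 0.138% of Col1a1, 0.160% of Col3a1, 0.208% of Col6a2 and 0.346% of Col6a1, but 71.1% of Col4a1 and 106% of Col4a2. The part of carried-over ASC transcripts in the EC-like values of types I, III and VI was not tested.

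Whole sorted plates, whose groups came from the label, gave values of the same kind. In mouse 1, the plate sorted on the reporter held 94.5 times as many Col1a1 reads per 1000000 protein-coding reads (coding CPM) as the CD31-positive plate, and in mouse 2, with the DPP4-negative reporter plate, the ratio was 147. For Col4a1 the ratios were 2.69 and 1.01, and for Col4a2 1.16 and 0.595. The DPP4-positive reporter plate of mouse 2 held 3389 coding CPM of Col1a1, 595 of Col4a1 and 397 of Col4a2, against 25.8, 737 and 847 on the CD31-positive plate. Each sort was 1 plate, so no test was made.

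Against macrophage-like cells, 19 of the 28 collagens were higher in ASC-like cells and 0 lower, with 14.9% of all genes called, 8.95% higher in ASC-like and 5.92% higher in macrophage-like cells. The groups did not overlap for 26 of the 28 and for 39.8% of all genes. The median log2 difference was 8.85, or 8.50 with Col12a1 at its bound, beside 0.18 over all genes. Here type IV followed the other types. Col4a1 was at 3.10 and 2.95 CPM in macrophage-like sums of mice 1 and 5, below all 7 ASC-like sums, with a log2 difference of 6.89 ± 0.48 (edgeR adjusted p = 0.000112), and Col4a2 was at 6.03 and 5.99 CPM with a difference of 5.67 ± 0.62. Col1a1 differed by 9.98, Col3a1 by 10.11, Col6a2 by 9.90 and Col5a1 by 10.70. Col12a1 had no read in these sums and was at least 250.4-fold higher in ASC-like sums. Without mouse 1 the count was 11.

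Mural-like cells carried more of the stromal collagens than EC-like cells and less than ASC-like cells. Against ASC-like cells, 8 of the 28 were lower in mural-like cells and 0 higher, with 7.81% of all genes called, 3.61% higher in ASC-like and 4.2% higher in mural-like cells. The groups did not overlap for 17 of the 28 and for 30.8% of all genes. The median log2 difference was 2.596 (unchanged with Col23a1 at its bound) beside 0.21. Col1a1 was at 207 and 88.8 CPM in mural-like sums of mice 1 and 2, below the lowest ASC-like sum of 999, with a log2 difference of 4.02 ± 0.88 (edgeR adjusted p = 0.0240). Col3a1 differed by 3.89 (119 and 372 CPM), Col1a2 by 3.66 (203 and 231 CPM) and Col6a2 by 2.46 (709 and 392 CPM). Col6a5, Col15a1, Col14a1 and Col6a6 differed by 8.42, 7.45, 7.34 and 6.75.

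The partner chains of type VI and type V did not pass. Col6a1 (187 and 348 CPM in mural-like sums) gave 2.12 ± 0.83 (edgeR adjusted p = 0.167), Col6a3 (112 and 175 CPM) 1.63 ± 0.86, and Col5a1, Col5a2 and Col5a3 gave 2.11, 2.46 and 2.38. Col4a1 and Col4a2 gave −0.01 ± 0.35 and −0.46 ± 0.46, with overlapping groups. The 8 calls rested on 2 mural-like sums. The count was 1 without mouse 2, which leaves 1 mural-like sum assumed to vary like the other classes, 1 without the cells rich in markers of another class, and 0 (with 0 of all genes) by edgeR when only these classes were fitted, where 15 of the 28 were at an unadjusted p under 0.05.

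Set against EC-like cells, 10 of the 28 collagens were higher in mural-like cells and 0 lower, with 2.18% of all genes called, 1.99% higher in mural-like and 0.187% higher in EC-like cells. The groups did not overlap for 11 of the 28 and for 15.8% of all genes. Col6a3, Col5a1, Col5a2, Col6a2 and Col6a1 led, with log2 differences of −7.05, −6.95, −6.74, −6.38 and −6.09 for EC-like minus mural-like. Col6a2 was at 709 and 392 CPM in mural-like sums and at 9.02, 7.83, 3.41, 1.07 and 15.2 CPM in EC-like sums, without overlap (edgeR adjusted p = 0.000526). Col1a1, Col1a2, Col3a1, Col5a3 and Col6a5 (2 reads in EC-like sums and 48 in mural-like sums) were the other calls. Col4a1 and Col4a2 were at −0.76 ± 0.34 and −0.42 ± 0.45 and not called. Without mouse 1 the count was 6, and with classes set from the markers of each cell it was 4. Of the 5 ASC markers, mural-like sums of mice 1 and 2 held 0.673% and 0.00255% of the ASC-like level of Dcn, 0.449% and 0% of Lum, 2.08% and 0% of Pdgfra, 1.1% and 0.00372% of Dpt and 17.2% and 13.2% of Serping1. Col6a1 was at 13.8% and 31.3% on this scale. The part of carried-over ASC transcripts in the mural-like values was not tested.

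The mural-like cells of mouse 1 split into 44 pericyte-like cells (Kcnj8, Rgs5) and 38 VSMC-like cells (Acta2, Myh11) with different collagens. Values are coding CPM with exact Poisson intervals, from 1 mouse and without a test. Col6a2 was at 2529 in pericyte-like and 552 in VSMC-like cells, Col4a1 at 1244 and 495, and Col3a1 at 452 and 60.7. Conversely, VSMC-like cells held more Col18a1, at 660.1 against 354, and both stood above the 148 of ASC-like cells of that mouse. In mouse 2, whose 13 mural-like cells were pericyte-like, Col18a1 was at 5.54 CPM against 31.1 CPM in ASC-like cells. The X-linked pair Col4a5 and Col4a6 was at 68.0 and 55.9 in VSMC-like cells against 2.36 and 1.39 in pericyte-like cells. Col19a1, a fibril-associated collagen that did not pass the count filter in any comparison, was at 41.0 in VSMC-like cells, with no read in pericyte-like cells and 0.0685 in ASC-like cells.

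**Figure D3:**
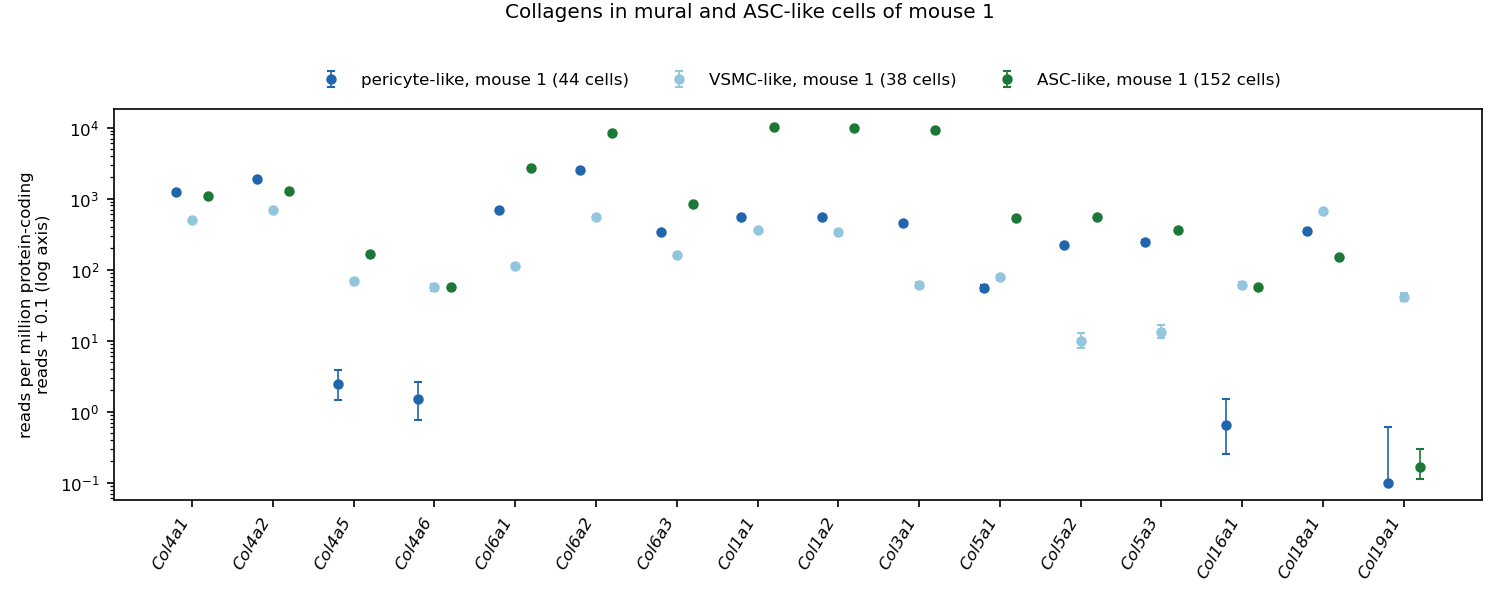
Reads per 1000000 protein-coding reads (plus 0.1, log axis) of 16 collagen genes in pericyte-like, VSMC-like and ASC-like cells of mouse 1, with exact 95% Poisson intervals. Col6a2 and Col5a2 are higher in pericyte-like cells, Col4a5, Col4a6, Col16a1, Col18a1 and Col19a1 are higher in VSMC-like cells, and the intervals cover counting error only.

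ASC-like cells were further divided within each mouse into ranges of a score from markers without collagens, ASC1a-like (Cxcl14, G0s2, Icam1; 705 cells), ASC1b-like (Clec11a, Fmo2, F3; 688 cells) and ASC2-like (Dpp4, Cd55, Arl4d, Pi16; 755 cells). These are ranges and not separate types, and 506 cells (23.6%) lay near a boundary. In mouse 2, 263 of 269 ASC2-like cells were on the DPP4-positive plate. Its DPP4-negative plate held 179 of 233 ASC1a-like and 183 of 245 ASC1b-like cells, so plate and sort were largely tied to range in this mouse. In mice 3, 4, 5 and 8 the ranges shared a plate. Total collagen had medians of 2.96%, 3.91% and 3.74% of protein-coding reads over 7 mice, with overlapping ranges, and within mice it was higher in ASC1b-like than in ASC2-like cells in 7 of 7, a difference that was not tested. Col1a1 gave log2 differences of −0.14 ± 0.21 for ASC1a-like minus ASC2-like, −0.82 ± 0.22 for ASC1a-like minus ASC1b-like and 0.68 ± 0.21 for ASC1b-like minus ASC2-like, none of which was called. Type I took 33.3% to 48.3% of collagen reads in ASC1b-like cells and 25.8% to 41.0% in ASC1a-like cells, higher in ASC1b-like cells in 7 of 7 mice. Col3a1 gave 0.00 ± 0.15, −0.27 ± 0.15 and 0.27 ± 0.15 in the same order and was not called.

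Between ASC1a-like and ASC2-like cells 4 of 26 collagens were called, against 2.17% of 11107 genes, 0.936% higher in ASC1a-like and 1.23% higher in ASC2-like cells. Col14a1, which decorates fibril surfaces, was lower in ASC1a-like cells, at 94.8, 32.4, 89.3, 94.3, 85.8, 57.2 and 128 CPM in mice 1, 2, 3, 4, 5, 6/7 and 8. In ASC2-like cells it was at 415, 275, 474, 291, 298, 156 and 306 CPM, so the groups did not overlap, which held for 0.729% of all genes. Its log2 difference was −1.96 ± 0.20 (edgeR adjusted p = 1.18e-05). Col15a1 was higher in ASC1a-like cells in 7 of 7 mice, at 595, 154, 134, 139.8, 72.7, 73.9 and 312 CPM against 362, 35.2, 28.3, 37.8, 12.8, 22.0 and 111 CPM. The groups overlapped through mice 1 and 8, and the log2 difference within mice was 1.77 ± 0.20 (edgeR adjusted p = 3.42e-05).

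The minor type IV chains Col4a3 and Col4a4, which share a promoter region, were also higher in ASC1a-like cells, by 2.06 ± 0.58 (edgeR adjusted p = 0.0410) and 1.63 ± 0.37 (0.0126), with medians of 7.13 against 1.79 CPM and 8.34 against 2.35 CPM. The main pair passed the p limit and not the fold limit. Col4a1 was higher in ASC1a-like cells by 0.92 ± 0.11 and Col4a2 by 0.84 ± 0.11, and Col4a1 had medians of 749 CPM in ASC1a-like, 462 in ASC1b-like and 377 in ASC2-like cells. Of collagen reads, type IV took 5.28% to 11.5% in ASC1a-like, 1.67% to 4.34% in ASC1b-like and 2.89% to 5.65% in ASC2-like cells. In the fit without mouse as a block, 1 of the 4 calls was left, and without mouse 8 there were 2.

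ASC1b-like cells shared part of this. Against ASC2-like cells 2 of 26 were called, with 1.57% of all genes called, 0.855% higher in ASC1b-like and 0.711% higher in ASC2-like cells. No collagen was without overlap between the groups, against 0.369% of all genes. Col4a4 was higher by 1.74 ± 0.38 (edgeR adjusted p = 0.0124), and Col12a1, a fibril-associated collagen, by 1.95 ± 0.53 (edgeR adjusted p = 0.0457). Col12a1 had medians of 6.21, 20.3 and 3.82 CPM in ASC1a-like, ASC1b-like and ASC2-like cells, and its ranges overlapped. Col15a1 (1.35 ± 0.20, edgeR adjusted p = 0.000554) missed the fold limit. In edgeR without mouse as a block 0 were called and 1 of 26 was at an unadjusted p under 0.05, and DESeq2 with the block called 3. Between ASC1a-like and ASC1b-like cells 1 of 26 was called, with 0.234% of all genes called, 0.036% higher in ASC1a-like and 0.198% higher in ASC1b-like cells. This was Col14a1, at 170.0 to 452 CPM in ASC1b-like cells without overlap with ASC1a-like cells (0.153% of all genes did not overlap), a log2 difference of −1.65 ± 0.20 (edgeR adjusted p = 0.000484). Col5a3 was higher in ASC1a-like cells by 1.02 ± 0.11 and missed the fold limit. Col14a1 kept its call in all 20 alternatives of both comparisons.

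**Figure D4:**
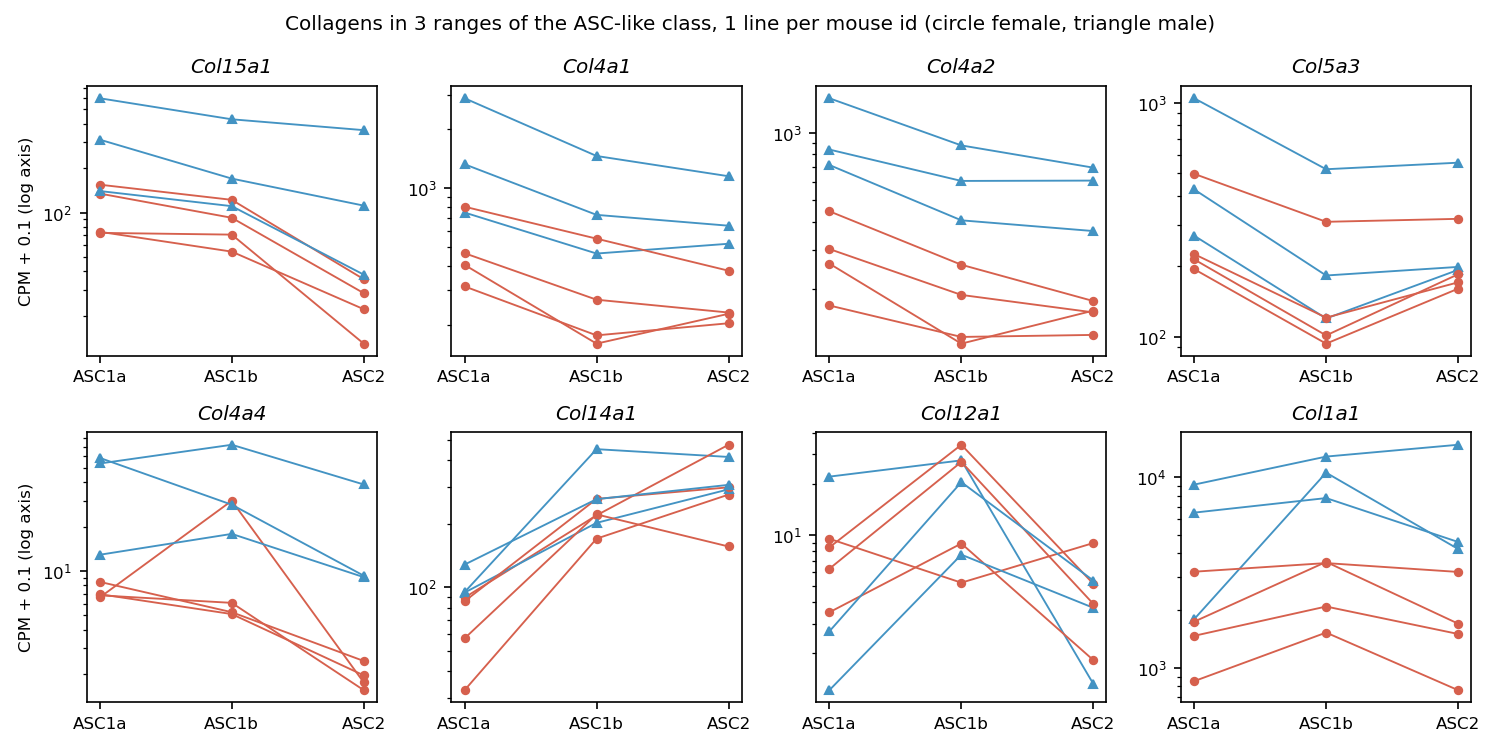
CPM (plus 0.1, log axis) of 8 collagen genes in ASC1a-like, ASC1b-like and ASC2-like sums, with 1 line per mouse id, circles for female and triangles for male mice. The Col14a1 lines rise from 32.4 to 128 CPM in ASC1a-like cells to 156 to 474 CPM in ASC2-like cells, and the Col15a1 lines fall from ASC1a-like to ASC2-like cells in 7 of 7 mice.

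Mouse 2 also gave plates sorted for and against DPP4, where the group came from the antibody. The same ASC-like cells made the range sums of mouse 2, and Dpp4 is a marker of the ASC2-like range. The plate values are therefore not independent of the range comparisons. On the DPP4-positive plate, 379 ASC-like cells held Col14a1 at 476 coding CPM (exact Poisson interval 473 to 479) and 368 such cells on the DPP4-negative plate at 229 (227 to 231). Col15a1 was at 149.7 against 278, Col4a4 at 0.304 times and Col4a3 at 0.216 times the level of the DPP4-negative plate. Other type IV chains did not all follow. On this scale Col4a5 was at 3.47 times (6024 against 1995 reads), Col4a6 at 1.88 times, Col4a1 at 0.798 times and Col4a2 at 0.791 times. Col1a1 and Col3a1 differed little, at 0.894 and 1.11 times. Col28a1, a collagen of nerve-associated matrix, was at 0.188 against 4.39, from 32 and 859 reads. Each sort was 1 plate of 1 mouse, so these are values without a test.

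The last comparison set male against female ASC-like cells, each mouse being of 1 sex. Of 28 collagens tested 10 were higher in males and 0 lower, against 2.16% of 11762 genes called 1.56% higher in males and 0.595% higher in females. The median log2 difference of the 28 was 1.65 beside 0.04 over all genes, and 14 of the 28 did not overlap between the sexes, against 16.4% of all genes. The males were mice 1, 4 and 8 and the females mice 2, 3, 5 and 6/7, each on its own plates, so plate, sort and animal cannot be told apart from sex beyond the spread between mice. Ribosomal RNA rows took 66.2%, 31.7% and 57.9% of gene reads in males and 29.9% to 54.1% in females.

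The 4 largest differences among the called collagens were those of Col8a1, Col6a5, Col4a6 and Col4a5. Col8a1, a short-chain collagen of vessel walls and of the cornea, was at 24.7, 19.7 and 28.3 CPM in males 1, 4 and 8 and at 1.03, 1.30, 0.551 and 0.208 CPM in females 2, 3, 5 and 6/7. The groups did not overlap, and the log2 difference was 4.96 ± 0.57 (edgeR adjusted p = 0.00277). Col6a5, an alternative type VI chain, was at 467, 337 and 139 CPM in males and at 7.23, 24.95, 5.595 and 5.89 CPM in females, a difference of 4.85 ± 0.65 (edgeR adjusted p = 0.00560). Male mouse 8 held the lowest and female mouse 3 the highest value of its group, and they still did not overlap.

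The X-linked type IV chains Col4a6 and Col4a5 rose together. Col4a6 was at 30.1, 16.0 and 14.8 CPM in males and at 1.09, 0.751, 1.53 and 0.540 CPM in females (4.39 ± 0.45, edgeR adjusted p = 0.00173), and Col4a5 at 87.5, 61.7 and 136 CPM against 10.6, 12.5, 5.98 and 6.39 CPM (3.42 ± 0.38, edgeR adjusted p = 0.00248). Their genes lie head to head on chromosome X with starts 1309 bases apart. These 4 genes were called in all 19 alternatives. The same order was found within the ASC ranges, where Col6a5 was at 124 to 515 CPM in males and 5.91 to 44.5 CPM in females among ASC2-like cells.

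Further calls were Col6a6 (2.47 ± 0.44), Col4a4 (2.33 ± 0.50), Col1a2 (2.24 ± 0.49), Col18a1 (1.88 ± 0.34), Col4a2 (1.79 ± 0.35) and Col8a2 (1.39 ± 0.30). Col1a2 was at 5291, 5517 and 15183 CPM in males and at 1472, 2790.4, 1968 and 1114 CPM in females (edgeR adjusted p = 0.0489). Partner chains that did not pass were Col1a1 (1.92 ± 0.46, edgeR adjusted p = 0.0654), Col4a1 (1.63 ± 0.45, 0.10003), Col4a3 (2.64 ± 0.60, 0.0545), Col6a1 (0.89), Col6a2 (1.29), Col6a3 (0.26) and Col6a4 (−1.42). Col14a1 and Col12a1 gave 0.29 ± 0.30 and 0.09 ± 0.51. The count of 10 was 4 without any of mouse 2, mouse 6/7 or mouse 8, 5 without mouse 5, 4 with library totals alone, which moved the median of all genes to −0.60, and 16 with DESeq2.

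**Figure D5:**
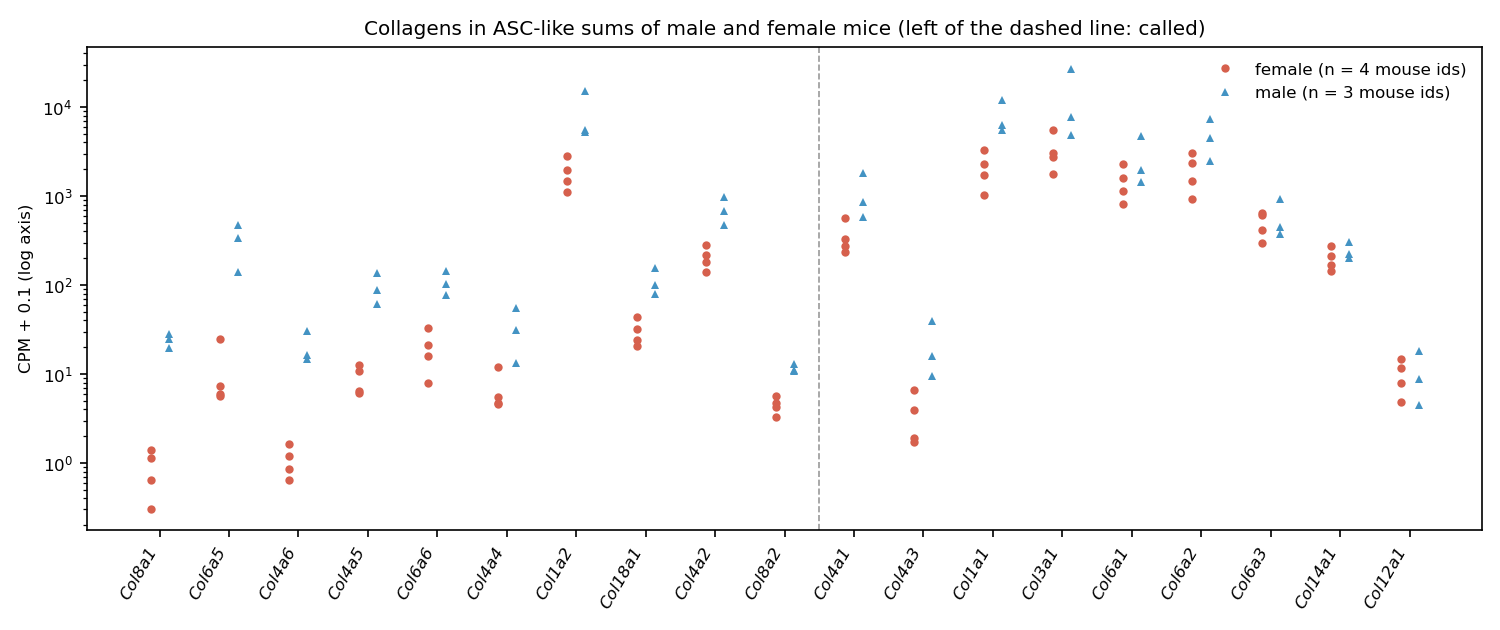
CPM (plus 0.1, log axis) of 19 collagen genes in ASC-like sums of 4 female mouse ids (circles) and 3 male mouse ids (triangles), with the 10 called genes left of the dashed line. For Col8a1 the males sit between 19.7 and 28.3 CPM and the females between 0.208 and 1.30 CPM, and the 10 called genes do not overlap between the sexes.

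Upstream windows are shown for the male-high genes Col4a5, Col4a6 and Col6a5 and for the interval between the starts of Col4a4 and Col4a3, whose genes start 72 bases apart. The windows of Col4a5, Col4a6 and Col6a5 were read from RefSeq promoters of GRCm38.p6 as bases 250 to 35 before the RefSeq start. That start can differ from the GENCODE start used for the spacing of genes. The interval holds the bases between the GENCODE starts of Col4a4 and Col4a3. All are written 5′ to 3′ on the strand of the gene, that of Col4a4 for the interval. Of the 40 genes 32 matched this table, with 34 windows. Motifs were searched on both strands, and capitals mark matches: TATAAA (9.80% of all 32851 windows of 216 bases, 4 of 34 collagen windows), CCAAT (30.5%, 10 of 34), GGGCGG (27.9%, 18 of 34), AGAACA (14.2%, 1 of 34) and GGTCA (31.6%, 10 of 34). The windows are chrX:141475169-141475384 (plus strand), chrX:141474111-141474326 (minus), chr9:105960678-105960893 (minus) and, for the interval of 71 bases, chr1:82586850-82586920 (minus). A match is a run of letters and not a shown binding site.
Col4a5: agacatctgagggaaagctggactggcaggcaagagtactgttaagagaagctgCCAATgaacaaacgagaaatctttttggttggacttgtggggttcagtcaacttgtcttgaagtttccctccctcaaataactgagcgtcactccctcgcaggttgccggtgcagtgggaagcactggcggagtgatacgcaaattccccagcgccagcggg
Col4a6: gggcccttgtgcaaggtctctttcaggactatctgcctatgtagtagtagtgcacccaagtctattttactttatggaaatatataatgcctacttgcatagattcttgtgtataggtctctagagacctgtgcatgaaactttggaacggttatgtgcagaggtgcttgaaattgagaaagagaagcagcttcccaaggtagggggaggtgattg
Col6a5: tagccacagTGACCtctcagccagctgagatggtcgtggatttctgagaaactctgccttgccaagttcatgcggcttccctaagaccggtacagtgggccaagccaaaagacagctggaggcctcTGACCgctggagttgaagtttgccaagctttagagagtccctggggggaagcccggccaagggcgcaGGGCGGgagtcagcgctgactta
Col4a4 to Col4a3: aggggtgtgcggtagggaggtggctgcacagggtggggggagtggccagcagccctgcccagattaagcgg

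Genes that modify, export, cross-link and bind collagen were followed as a list of 47 in the table. Dcn and Lum are in this list and are also markers that named the ASC-like class. Their differences between ASC-like cells and other classes therefore follow in part from the naming. Against EC-like cells, 33 of 44 tested were higher in ASC-like cells and 2 lower, with a median log2 difference of 3.65, beside 13.4% and 8.18% of all genes and a median of 0.18. Lox, a cross-linking oxidase, was higher by 8.08, Serpinh1, the collagen chaperone HSP47, by 2.498, and P4hb, a subunit of prolyl hydroxylase, by 1.497, whereas Ppib (1.33), a prolyl isomerase, passed the p limit and missed the fold limit. The collagen receptors Itga1 (5.73 against 155 CPM) and Lair1 (0.182 against 2.47 CPM) were the 2 that were higher in EC-like cells. Lair1 was low in both classes and was also higher in macrophage-like than in ASC-like cells. The source of its reads in EC-like sums was not tested. Against mural-like cells 10 were higher and 2 lower (Itga1 and P3h2), beside 3.61% and 4.2% of all genes, in a comparison that rests on 2 mural-like sums and gave 0 calls over all genes when only these classes were fitted. Against macrophage-like cells 31 were higher and 2 lower (Lair1 and P3h2), beside 8.95% and 5.92%. Between EC-like and mural-like cells 0 were higher and 9 lower, beside 0.187% and 1.99%. In ASC1a-like against ASC2-like cells 0 of 42 were higher and 2 lower, beside 0.936% and 1.23% of all genes. These were Fn1, whose fibronectin is a scaffold for collagen assembly, and Pcolce2, with log2 differences of −1.60 each. In ASC1b-like against ASC2-like cells 1 of 42 was higher (Adamts3, 1.48) and 0 lower, beside 0.855% and 0.711% of all genes. None of 42 was called between ASC1a-like and ASC1b-like cells by edgeR, beside 0.234% of all genes called. At an unadjusted p under 0.05 there were 1205 of all genes. In males 1 of 42 was higher (Fmod, 3.15) and 2 were lower (Lum, −1.58, and P4ha3, −6.59), beside 1.56% and 0.595% of all genes.

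Of the 40 collagens 12 did not pass the count filter in any comparison. These were Col7a1 of anchoring fibrils, the cartilage-type chains Col9a3, Col10a1, Col11a1 and Col11a2, the membrane-spanning Col13a1, Col17a1 and Col25a1, and Col19a1, Col20a1, Col22a1 and Col26a1. Col11a1 was at 3.47 and 3.06 CPM in ASC-like sums of male mice 1 and 4 and at most 0.183 CPM in the other 5. Col13a1 was at 15.8 CPM in the mural-like sum of mouse 2 and 0.390 CPM in that of mouse 1. Col23a1 and Col28a1 did not pass within the ASC ranges.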

How the data were processed

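The authors aligned Smart-seq2 reads with STAR to mm10 with spike-in sequences and quantified genes with Salmon, and software versions are not given in the sources used here. The deposited table holds raw counts, whole reads per gene and cell, for 23507 gene rows and 72 spike-in rows (1.98% of reads, left out), from cells the authors had filtered on reads, genes, mitochondrial and spike-in shares and the ratio of genes to total counts. Plates held 93839724 to 310431907 reads. Of the gene rows 23461 matched GENCODE vM21 (GRCm38). How estimated counts became whole was not stated, and 50-base reads can be shared between overlapping genes such as Col4a1 and Col4a2.

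From these counts, cells were clustered with Seurat 5.3.0 (scale factor 500000, 3000 variable genes without collagens, 14 components, resolution 1.1), giving 18 clusters. Classes followed marker lists, and ASC ranges the highest marker score within each mouse. A cluster of 103 cells with other leading genes was kept out of the ASC-like class and is not reported here, 170 cells stayed unnamed, and no doublet caller was run, so cells rich in markers of another class were left out in an alternative. The EC-like class held 2 clusters. In 1 of them (179 cells, 173 male) all 5 fixed EC markers were each detected in at least 25% of cells. None of these markers was among its leading genes, so male and female EC-like cells were not compared. Sums per mouse and class of at least 10 cells, for genes whose count exceeded 600 in 2 or more sums, were tested in edgeR 4.0.16 (TMM, quasi-likelihood, R 4.3.3), with mouse as a block in class and range comparisons because those sums share an animal. Benjamini-Hochberg adjustment covered all genes tested. DESeq2 1.42.0 was an alternative, as were other scalings, filters and class rules and leaving out each mouse. The test was checked on simulated data. In the male and female comparison, p-values measure the spread between mice. In the class and range comparisons they measure how far differences within mice vary from mouse to mouse. That spread is pooled over all groups of a fit, so classes with few sums borrow it from the others. Mouse 6/7 pooled a pair of animals. Genes, groups and alternatives were chosen with earlier results of these data known. Values and tests are given for the leading members of each class and up to 10 called members of a comparison, and other genes come from marker and maturation lists. Col19a1, Col11a1, Col13a1 and Col28a1 were singled out after their values were seen, and so were the upstream windows.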

Additional observations from a re-analysis of the deposited data

Results flagged for a closer look

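In 32 groups of mouse sums, 11 had an end value whose gap to the nearest other exceeded Dixon's 95% limit, a limit that chance passes in about 1 in 20 groups. The groups share the same mice, so the flags are not independent and that rate is only a rough scale. Of the 11 flags, 9 were in mouse 8, a male whose ASC-like cells came from 1 plate, as did those of mice 3, 4 and 5. Its ASC-like sum held 10.6% of protein-coding reads in collagens (median 4.00%), Col3a1 at 26763 CPM (median 4605), Col1a2 at 15174 CPM (median 2714), Col6a1 at 4720.0 CPM, Col4a1 at 1798 CPM, Col5a2 at 1035 CPM, Col5a3 at 696 CPM and Col4a3 at 39.3 CPM, and its EC-like sum held Col4a1 at 697 CPM (median 241). Ribosomal RNA rows took 57.9% of its ASC-like gene reads, and their part was not tested. In mouse 1, Col15a1 at 440.3 CPM (median 93.5) and Col27a1 at 19.5 CPM (median 6.11) stood apart in ASC-like sums.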

How the results depend on the processing

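For collagens called in the main fits, values were counted in each alternative where the gene was tested. Of these, 1462 kept their direction and stayed called, 161 fell below the threshold and none changed direction. Genes not called in the main fits were not counted. Against mural-like cells, ASC-like cells gave 8 calls and 15 with the likelihood ratio test or DESeq2, 1 with at least 20 cells, with classes from the markers of each cell or without cells rich in other markers, 0 with only these classes fitted, and 1 to 8 leaving out each mouse. Against macrophage-like cells the range without each mouse was 11 to 20, against EC-like cells 19 to 22. EC-like against mural-like gave 10, 4 with classes from cell markers, 6 with only these classes fitted and 6 to 10 without each mouse. ASC1a-like against ASC2-like gave 4, 1 with no replicate block and 2 to 4 without each mouse. ASC1b-like against ASC2-like gave 2, 0 with no replicate block, 1 with a filter of 10 counts, without cells near the boundary or with library totals without ribosomal RNA rows, and 1 to 4 without each mouse (4 without mouse 1, and 1 without mouse 2, 3, 5 or 6/7). ASC1a-like against ASC1b-like gave 1, and 2 with DESeq2. Male against female gave 10, 4 with library totals alone, 5 with a filter of 10 counts, 16 with DESeq2 and 4 to 11 without each mouse. The cause of these shifts was not tested. Ribosomal RNA rows left out gave 9 (with library totals 7, and a median of all genes of −0.26), and keeping the cluster of 103 cells in the ASC-like class 8. These settings, the larger EC-like cluster alone and the shares over protein-coding reads were chosen after seeing the data.

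On protein-coding reads the median collagen share was 4.00% in ASC-like, 0.175% in EC-like, 0.671% in mural-like and 0.0107% in macrophage-like sums. Col6a2 in mural-like sums was 66.1 RPKM with merged exons. At least 10 reads were found for Col1a1 in 99.9% of ASC-like and 1.08% of EC-like cells, for Col4a1 in 59.3% and Col4a2 in 60.9% of EC-like cells, and for Col4a1 in 0% of macrophage-like cells. Without thinning, the shares were 91.1% (Col4a1), 93.2% (Col4a2) and 31.2% (Col1a1) in EC-like cells and 51.8% (Col4a1) in macrophage-like cells.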

Other observations

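The CD31-positive plate of mouse 2 held Col28a1 at 31.9 coding CPM (exact Poisson interval 30.8 to 32.9), from 3605 reads. The EC-like sums of mice 1, 2, 5, 6/7 and 8 held it at 3.76, 14.2, 9.15, 3.76 and 7.74 CPM, but only 5.73% of EC-like cells thinned to 150000 reads had a read of it, against 3.49% of ASC-like and 0 of 137 macrophage-like cells, which allows up to 2.19% of cells with a read at this depth. Before thinning, 1.46% of macrophage-like cells had one.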
